A study of Arabidopsis thaliana with 10 samples.

Results

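The nuclear photosystem and antenna genes described here are 44 of the 34047 genes in the deposited tables, taken from a list of gene identifiers covering LHCA1 to LHCA6, LHCB1 to LHCB7, PSAD to PSAO and PSBO to PSBY. They fall into 6 genes for the photosystem I (PSI) antenna, 15 for the photosystem II (PSII) antenna, 12 for the PSI core and 11 for the PSII core. The list was set by gene identity and no measured value entered its rule, but it was drawn up with earlier results of these data known. Each of the 44 was found and tested in all 4 tables.

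RNA was sequenced from whole Arabidopsis thaliana seedlings, 10 days old and grown without treatment under a 16 h photoperiod at 22 °C and 65 µE of light. The 5 genotypes were a 35S:IBH1-GFP line (IBH1 overexpression), an ibh1 mutant with a T-DNA insertion (SALK 049177), a 35S:IBL1-GFP line (IBL1 overexpression), an ibl1 mutant with a T-DNA insertion (SALK 119457) and the wild type Col, all in the Col-0 background. The cauliflower mosaic virus 35S promoter drives expression in nearly all tissues, and the labels name 1 transgene or 1 insertion allele per gene, so a feature of that line and an effect of its gene cannot be told apart. IBH1 and IBL1 are related helix-loop-helix proteins that do not bind DNA themselves and are known from brassinosteroid and cell elongation studies in Arabidopsis. Each genotype had 2 libraries, and the deposited tables give 1 FPKM value for the pair (a level already scaled for transcript length and library size), so levels of different genes can be compared but the spread between libraries cannot be shown. The extraction protocol speaks of 3 independent biological repeats and of libraries made in biological duplicate, without saying how the cultures were kept apart; the 2 numbered libraries per genotype are taken as the design. All 4 comparisons with Col use the same Col libraries and are not independent of each other.

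The targeted genes followed the labels. IBH1 stood at 5148 FPKM in the IBH1 overexpression line, 6.91 in the ibh1 mutant and 22.2 in Col. IBL1 stood at 201 FPKM in the IBL1 overexpression line, 1.87 in the ibl1 mutant and 7.70 in Col. In the overexpression lines the value adds transgene and native transcripts together. IBL1 was also low in the IBH1 overexpression line, at 1.84 FPKM. Leaf mesophyll markers (9 genes, mostly Rubisco and Calvin cycle genes) and root markers (7 genes) were both detected, as whole seedlings would give, and 4 flower and seed markers summed to between 0.316 and 2.62 FPKM in any genotype.

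Photosystems are pigment-protein complexes of the thylakoid membrane that turn light into electron flow. Antenna proteins of the LHC family bind chlorophyll and pass excitation energy to the reaction centres, and the core subunits named here dock electron carriers, hold the antenna or support water splitting. The reaction centre proteins are encoded in the chloroplast, whereas antenna proteins and many peripheral core subunits are encoded in the nucleus, where their genes are known to respond together to light and to signals from the chloroplast.

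Several members are near-copies of each other, which bears on how their reads can be assigned, and the LHCB1 genes are the closest. LHCB1.1 (AT1G29920), LHCB1.2 (AT1G29910) and LHCB1.3 (AT1G29930) lie side by side on chromosome 1 and LHCB1.4 (AT2G34430) and LHCB1.5 (AT2G34420) on chromosome 2. The first 60 coding bases of the 5 genes (RefSeq, TAIR10.1, 5′ to 3′) are given here. Capitals mark the 16 positions at which the 5 are not all the same.
LHCB1.1: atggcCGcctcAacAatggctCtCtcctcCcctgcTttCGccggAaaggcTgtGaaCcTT
LHCB1.2: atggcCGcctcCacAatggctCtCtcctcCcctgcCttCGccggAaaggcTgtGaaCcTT
LHCB1.3: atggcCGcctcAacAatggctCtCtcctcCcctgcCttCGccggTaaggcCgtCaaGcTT
LHCB1.4: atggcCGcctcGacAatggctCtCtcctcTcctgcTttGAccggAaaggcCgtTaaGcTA
LHCB1.5: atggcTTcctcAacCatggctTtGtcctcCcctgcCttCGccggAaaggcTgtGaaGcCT
Over the whole coding sequence of 804 bases, LHCB1.1 and LHCB1.3 differed at 31 bases, and the 3 genes on chromosome 1 were 95.7% to 96.4% identical to each other. LHCB1.4 and LHCB1.5 were 92.5% identical, and LHCB2.1 (AT2G05100) and LHCB2.2 (AT2G05070) were 92.9% identical. LHCB2.3 (AT3G27690) stood further off, at 84.5% and 84.7% to the other LHCB2 genes, and LHCB4.3 (AT2G40100) further still, at 71.8% to LHCB4.1 (AT5G01530) and 73.0% to LHCB4.2 (AT3G08940). How the authors assigned reads shared between copies is not given in the sources used here, so values of single LHCB1 genes and of LHCB2.1 and LHCB2.2 are uncertain where the copies are set against each other.

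These were among the most abundant transcripts of the seedling. Of the 100 nuclear genes with the highest FPKM in Col, 38 were members, as were 31 of the top 50. Levels in Col ran from 7.79 FPKM for LHCB7, a rarely seen antenna form, to 23514 FPKM for LHCB1.3. The PSII antenna held the most, and most of it was LHCB1, the main subunit of the LHCII trimer: the 5 LHCB1 genes summed to 29391 FPKM in the IBH1 overexpression line, 22092 in the IBL1 overexpression line and 53215 in Col.

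Most members were lower than Col in every line. By the authors' q below 0.05, with q adjusted over all genes tested in the table, 39 were lower and 1 was higher in the IBH1 overexpression line, where 4.19% of all tested genes were lower and 3.82% higher. In the ibh1 mutant 25 were lower and 0 higher, against 2.04% and 1.34% of all genes. In the IBL1 overexpression line 41 were lower and 1 higher, against 3.58% and 10.3% of all genes, and in the ibl1 mutant 34 were lower and 0 higher, against 4.4% and 1.05%. The median log2 fold change of the 44 genes was -0.55 in the IBH1 overexpression line, -0.30 in the ibh1 mutant, -0.69 in the IBL1 overexpression line and -0.41 in the ibl1 mutant, while the median of all tested genes was 0.01, 0.02, 0.13 and -0.07 in the same order. In the IBL1 overexpression line the median of genes at 1 FPKM or more was itself shifted by 0.12 on the log2 scale. Relative to that shift the members' median was -0.80, with 42 lower and 0 higher. On that scale 1284 of all 20926 usable genes were lower and 1188 higher.

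Abundance has to be read beside these counts, because strongly expressed genes were called more often than genes overall. Of all genes at 100 FPKM or more in Col, 18.3% were lower in the IBH1 overexpression line, 14.5% in the ibh1 mutant, 21.1% in the IBL1 overexpression line and 28.7% in the ibl1 mutant. Among the other nuclear genes at 1000 FPKM or more in Col, 23.7% were lower in the IBH1 overexpression line, 32.2% in the ibh1 mutant, 31.6% in the IBL1 overexpression line and 48.3% in the ibl1 mutant; both comparisons were added after the data were seen. Of the 38 members at that level, 37, 25, 38 and 32 were lower in the same lines. In the IBL1 and IBH1 overexpression lines the median log2 fold changes of these 38 members were -0.73 and -0.57, beside -0.10 and -0.02 for the other abundant genes. In the ibl1 and ibh1 mutants the medians lay closer together, at -0.43 and -0.32 for the members beside -0.22 and -0.20.

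**Figure D1:**
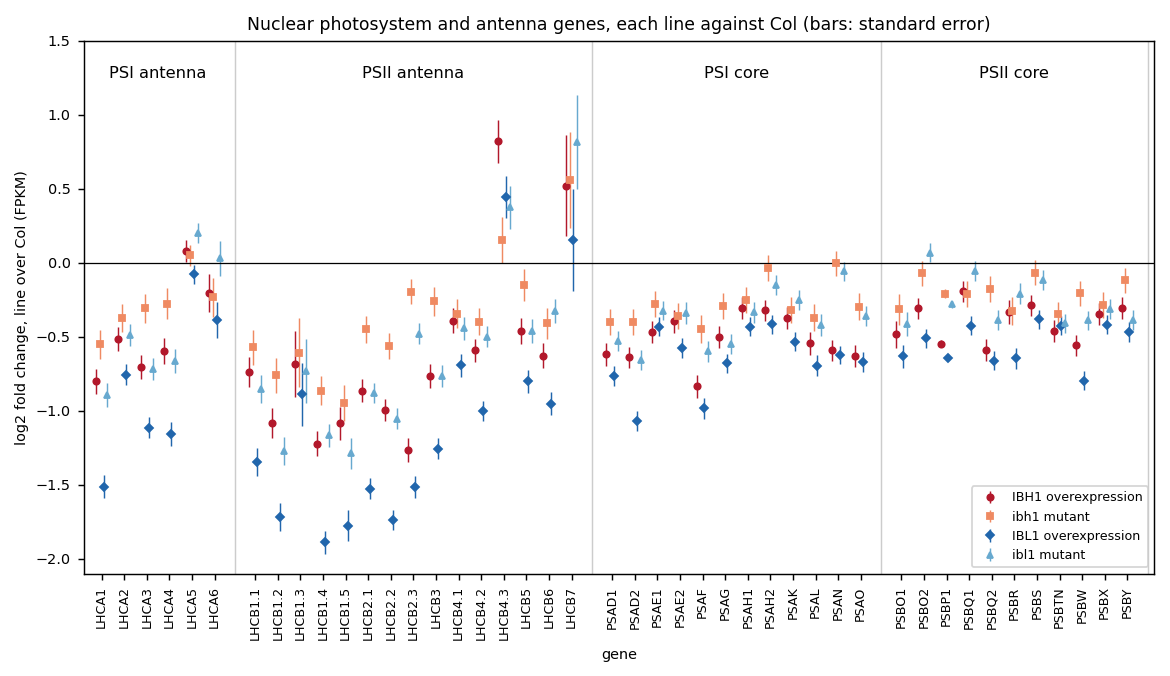
Log2 fold change of FPKM, line over Col, for each of the 44 genes (x axis, grouped by complex) in the 4 lines; bars are the standard error recovered from the authors' statistic. IBL1 overexpression (blue diamonds) is the lowest point for most genes, and LHCB4.3, LHCB7 and LHCA5 stand near or above 0.

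The order of the genotypes was nearly the same from gene to gene. IBL1 overexpression was the lowest of the 5 genotypes for 40 of the 44 genes, and Col was the highest for 39. For 32 genes the full order ran IBL1 overexpression, then the ibl1 mutant and IBH1 overexpression in either order, then the ibh1 mutant, then Col. The genes share their libraries and the same Col, so an order repeated across genes is not repeated evidence. Single steps were often not called: the ibl1 mutant was lower than the ibh1 mutant for 3 members, and IBH1 overexpression lower than the ibh1 mutant for 7. Of the 44 genes, 24 were called lower in all 4 lines, 11 in 3 lines, 4 in 2 lines, 2 in 1 line and 3 in none.

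The PSI antenna is a belt of LHCA proteins on one side of the reaction centre, made mainly of LHCA1 (AT3G54890) to LHCA4 (AT3G47470). LHCA1 stood at 2427 FPKM in the IBH1 overexpression line, 2886 in the ibh1 mutant, 1484 in the IBL1 overexpression line, 2276 in the ibl1 mutant and 4231 in Col. All 4 lines were below Col, and IBL1 overexpression was lowest, with a log2 fold change of -1.51 ± 0.08 (SE; authors' q listed as 0). LHCA3 (AT1G61520) and LHCA4 also fell by more than 1 on the log2 scale in that line, at -1.11 and -1.16, and LHCA2 (AT3G61470) fell least of the 4, at -0.76. LHCA4 was the one of the 4 not called in the ibh1 mutant, at -0.28 ± 0.11 (authors' q of 0.14).

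LHCA5 (AT1G45474) and LHCA6 (AT1G19150) are minor forms that link PSI to the chloroplast NADH dehydrogenase-like complex, and they behaved otherwise. LHCA5 stood at 135 FPKM in the IBH1 overexpression line, 132 in the ibh1 mutant, 121 in the IBL1 overexpression line, 147 in the ibl1 mutant and 128 in Col, and passed the test in no line. After subtracting each line's shift it was called lower in the IBL1 overexpression line (-0.19) and higher in the ibl1 mutant (0.27), so its call depends on the scaling. LHCA6 was called in the IBL1 overexpression line, at 65.7 FPKM against 86.0 in Col (log2 -0.39 ± 0.12, authors' q of 0.0153). It was not called in the IBH1 overexpression line (-0.20) or the ibh1 mutant (-0.23), and the difference between the overexpression lines did not pass the test (adjusted p of 0.752). In the ibl1 mutant it stood at 87.8 FPKM, and the difference from the IBL1 overexpression line passed the test only relative to the shift between them.

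LHCB1, LHCB2 and LHCB3 (AT5G54270) form the LHCII trimers of PSII, and the deepest falls were among them. LHCB1.4 stood at 1853 FPKM in the IBH1 overexpression line, 2374 in the ibh1 mutant, 1167 in the IBL1 overexpression line, 1926 in the ibl1 mutant and 4324 in Col. The IBL1 overexpression line thus held 27.0% of the Col level, a log2 fold change of -1.89 ± 0.08, the lowest of any member in any line, and the authors' q was listed as 0 in all 4. The gene's FPKM counts fragments over chr2:14524756-14525763 (TAIR10, as the tables give it). LHCB1.5 and LHCB1.2 followed in that line at -1.78 ± 0.10 and -1.72 ± 0.09. LHCB1.3 was the most abundant, at 14651 FPKM in the IBH1 overexpression line, 15437 in the ibh1 mutant, 12698 in the IBL1 overexpression line, 14148 in the ibl1 mutant and 23514 in Col. It was also the least precisely measured of the abundant members, with standard errors of 0.21 to 0.23. It was not called in the ibh1 mutant (-0.61 ± 0.23, authors' q of 0.151), and its call in the ibl1 mutant was lost after subtracting that line's shift. Summing copies before the fold change, which sets aside reads shared within a sum, gave log2 fold changes of -0.77, -0.63, -1.11 and -0.85 for LHCB1.1 to LHCB1.3 together and -1.13, -0.92, -1.81 and -1.25 for LHCB1.4 with LHCB1.5, in the order IBH1 overexpression, ibh1, IBL1 overexpression and ibl1.

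LHCB2 proteins are phosphorylated in state transitions, in which LHCII moves between the photosystems. LHCB2.2 stood at 975 FPKM in the IBH1 overexpression line, 1317 in the ibh1 mutant, 583 in the IBL1 overexpression line, 936 in the ibl1 mutant and 1944 in Col, and fell by 1.00 ± 0.07 on the log2 scale in the IBH1 overexpression line. Its log2 fold changes were -0.56 ± 0.09 in the ibh1 mutant, -1.74 ± 0.07 in the IBL1 overexpression line and -1.05 ± 0.07 in the ibl1 mutant. Each line was below Col, and LHCB2.1 had the same order of genotypes. LHCB2.3 differed from both: it stood at 310 FPKM in the IBH1 overexpression line and 260 in the IBL1 overexpression line, with 651 in the ibh1 mutant, 534 in the ibl1 mutant and 745 in Col. Both overexpression lines were well below both mutants for this gene, and the ibh1 mutant was not called (-0.19 ± 0.09, authors' q of 0.243). LHCB3, the third trimer subunit, stood at 2123, 3008, 1509 and 2118 FPKM in the IBH1 overexpression, ibh1, IBL1 overexpression and ibl1 lines and at 3604 in Col, and was likewise called in all but the ibh1 mutant.

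LHCB4, LHCB5 (AT4G10340) and LHCB6 (AT1G15820) are the monomeric antennas CP29, CP26 and CP24, which bridge the trimers and the core. LHCB4.1 stood at 2572 FPKM in the IBH1 overexpression line, 2660 in the ibh1 mutant, 2085 in the IBL1 overexpression line, 2484 in the ibl1 mutant and 3374 in Col, a milder fall than that of the trimer genes (log2 -0.69 ± 0.08 in the IBL1 overexpression line). LHCB4.2 and LHCB6 fell by 1.00 and 0.95 in that line and were lower in all 4. LHCB5 fell in all but the ibh1 mutant.

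LHCB4.3, a divergent CP29 form also called LHCB8, ran the other way. It stood at 74.1 FPKM in the IBH1 overexpression line, 46.7 in the ibh1 mutant, 57.1 in the IBL1 overexpression line, 54.4 in the ibl1 mutant and 42.0 in Col. Col was the lowest of the 5 genotypes. The rise in the IBH1 overexpression line was 0.82 ± 0.14 on the log2 scale (authors' q of 7.66e-07), and that in the IBL1 overexpression line was 0.44 ± 0.14 (authors' q of 0.018), a call lost when that line's shift was subtracted. The mutants' values were not called (authors' q of 0.705 in ibh1 and 0.134 in ibl1). LHCB7 (AT1G76570) had 7.79 FPKM in Col and between 8.69 and 13.7 in the lines, and with standard errors of 0.32 to 0.35 no difference was detectable.

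**Figure D2:**
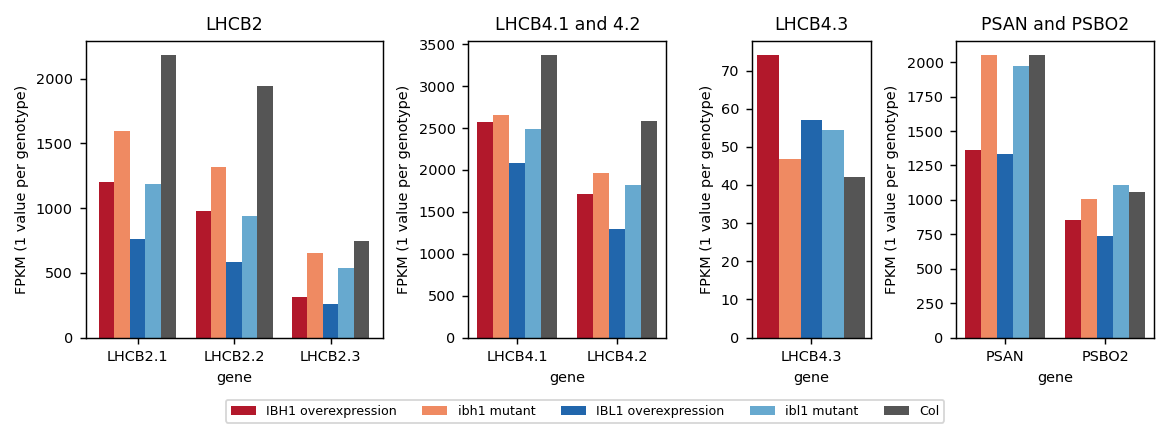
FPKM of LHCB2.1, LHCB2.2, LHCB2.3, LHCB4.1, LHCB4.2, LHCB4.3, PSAN and PSBO2 in the 5 genotypes, 1 value per genotype of 2 libraries and so without an error bar. LHCB2.3 and PSAN are low in both overexpression lines (310 and 260 FPKM for LHCB2.3), and LHCB4.3 is lowest in Col (42.0 FPKM).

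PSI core subunits varied less from gene to gene than the antenna genes in each line, though more than the PSII core. All 12 were lower in both overexpression lines, 9 in the ibh1 mutant and 10 in the ibl1 mutant, with medians of -0.52, -0.65, -0.31 and -0.35 on the log2 scale in the order IBH1 overexpression, IBL1 overexpression, ibh1 and ibl1. PSAF (AT1G31330), which docks plastocyanin, stood at 2085 FPKM in the IBH1 overexpression line, 2733 in the ibh1 mutant, 1884 in the IBL1 overexpression line, 2457 in the ibl1 mutant and 3721 in Col. It fell in all 4 lines, at -0.84 ± 0.08, -0.45 ± 0.09, -0.98 ± 0.07 and -0.60 ± 0.07. PSAD and PSAE form the docking site of ferredoxin: PSAD2 (AT1G03130) fell by 1.07 in the IBL1 overexpression line, the deepest of the core, and PSAE1 (AT4G28750) by 0.43. PSAK (AT1G30380) binds antenna proteins at the edge of PSI, and its call in the ibl1 mutant (-0.25) was lost after subtracting that line's shift. PSAO (AT1G08380), which with PSAH and PSAL (AT4G12800) forms the face that receives LHCII, stood at 2498 FPKM in the IBH1 overexpression line, 3152 in the ibh1 mutant, 2436 in the IBL1 overexpression line, 3017 in the ibl1 mutant and 3871 in Col. PSAD1 (AT4G02770), PSAE2 (AT2G20260), PSAG (AT1G55670) and PSAL, like PSAO, were called lower in all 4 lines, with log2 fold changes between -0.76 (PSAD1 in IBL1 overexpression) and -0.29 (PSAG in ibh1). PSAH1 (AT3G16140) was called in all but the ibh1 mutant, where it was at -0.25 ± 0.09.

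PSAN (AT5G64040), a lumenal subunit at the plastocyanin side, separated overexpression from mutation. It stood at 1362 FPKM in the IBH1 overexpression line and 1333 in the IBL1 overexpression line, with 2049 in the ibh1 mutant, 1973 in the ibl1 mutant and 2054 in Col. The overexpression lines fell by 0.59 ± 0.07 and 0.62 ± 0.06, and both mutants lay close to Col (authors' q of 0.991 in ibh1 and 0.711 in ibl1). PSAH2 (AT1G52230), of the LHCII docking face, had the same calls at 1205, 1129, 1468, 1354 and 1506 FPKM in IBH1 overexpression, IBL1 overexpression, ibh1, ibl1 and Col. Its difference between overexpression line and mutant did not pass the test with IBH1 (adjusted p of 0.208) or IBL1 (0.0837). With IBL1 it passed only relative to the shift between the lines (0.000212).

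PSII core subunits fell least. In the IBH1 overexpression line 10 of 11 were lower, in the ibh1 mutant 4, in the IBL1 overexpression line all 11 and in the ibl1 mutant 7, with medians of -0.35, -0.21, -0.51 and -0.31. PSBO, PSBP and PSBQ make up the oxygen-evolving complex that shields the manganese cluster. PSBP1 (AT1G06680) stood at 2346 FPKM in the IBH1 overexpression line, 2963 in the ibh1 mutant, 2195 in the IBL1 overexpression line, 2820 in the ibl1 mutant and 3425 in Col, and was the most precisely measured member, with log2 fold changes of -0.55 ± 0.03, -0.21 ± 0.03, -0.64 ± 0.02 and -0.28 ± 0.02. PSBQ1 (AT4G21280) was called in the IBL1 overexpression line (-0.43 ± 0.06), and its values of -0.19 in the IBH1 overexpression line and -0.21 in the ibh1 mutant were not called; the difference between the overexpression lines did not pass the test (adjusted p of 0.168), though it did relative to the shift between them (0.0112). Its paralog PSBQ2 (AT4G05180) was called in all but the ibh1 mutant. PSBO2 (AT3G50820) was at 852 FPKM in the IBH1 overexpression line, 1003 in the ibh1 mutant, 741 in the IBL1 overexpression line, 1105 in the ibl1 mutant and 1055 in Col, and was called in the overexpression lines. Its difference between overexpression line and mutant passed the test with IBL1 (adjusted p of 5.85e-08) and not with IBH1 (0.418). PSBS (AT1G44575), the sensor of non-photochemical quenching, also fell in the overexpression lines, by 0.29 ± 0.07 with IBH1 and 0.38 ± 0.06 with IBL1, and its values in the ibh1 and ibl1 mutants, -0.07 and -0.11, were not called. Its difference between overexpression line and mutant did not pass the test with IBH1 (adjusted p of 0.508) or IBL1 (0.0659). With IBL1 it passed only relative to the shift between the lines (0.000116).

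The remaining PSII core genes encode small or peripheral subunits. PSBR (AT1G79040), the most abundant of the PSII core in Col, stood at 4030 FPKM in the IBH1 overexpression line, 4051 in the ibh1 mutant, 3246 in the IBL1 overexpression line, 4398 in the ibl1 mutant and 5079 in Col. It was called in all but the ibl1 mutant (-0.21 ± 0.07, authors' q of 0.0702). PSBW (AT2G30570), which stabilises PSII supercomplexes, had the deepest fall of the PSII core in any line, at -0.80 ± 0.06 in the IBL1 overexpression line, with 1132 FPKM against 1966 in Col. PSBTN (AT3G21055) and PSBX (AT2G06520) were lower in all 4 lines, and PSBO1 (AT5G66570), PSBW and PSBY (AT1G67740) in all but the ibh1 mutant.

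**Figure D3:**
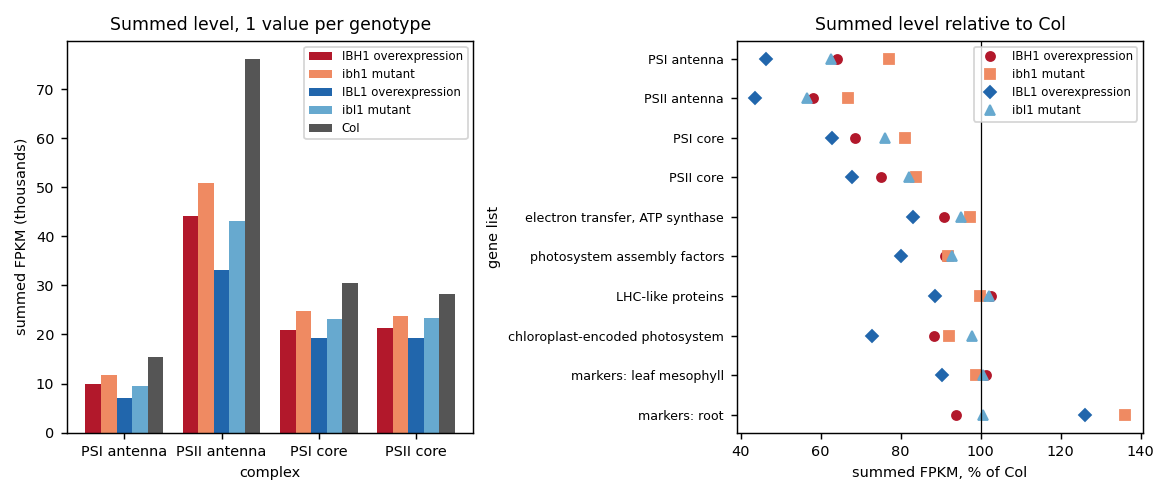
Left, summed FPKM of each complex in the 5 genotypes (in units of 1000, 1 value per genotype); right, summed FPKM of each gene list as a percentage of Col in the 4 lines. The antenna sums lie furthest left, at 43.7% of Col for the PSII antenna with IBL1 overexpression, and the mesophyll marker sums lie between 90.3% and 101%.

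Summed antenna transcripts stood further below Col than summed core transcripts in each line. The summed FPKM of the PSII antenna was 58.0% of Col in the IBH1 overexpression line, 66.9% in the ibh1 mutant, 43.7% in the IBL1 overexpression line and 56.6% in the ibl1 mutant. For the PSI antenna the figures were 64.0%, 77.2%, 46.3% and 62.6%, for the PSI core 68.5%, 81.2%, 63.0% and 76.0%, and for the PSII core 75.1%, 84.0%, 67.8% and 82.2%. The ratio of summed antenna to summed core FPKM was therefore 1.28, 1.29, 1.05 and 1.13 in the 4 lines, against 1.55 in Col. Within a line this ratio does not move with a scaling common to all genes, but with 1 value per genotype it has no error and was not tested. The sums are dominated by LHCB1. Level and fold change also ran together across the 44 genes (Spearman rho of -0.55, -0.65, -0.58 and -0.60 between Col FPKM and log2 fold change); the genes share their libraries, Col enters both measures, and genes are not replicates.

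Setting the lines against each other tested the differences directly, in 4 pairs, with p adjusted over all genes usable in both tables. IBL1 overexpression was lower than IBH1 overexpression for 12 members (1.39% of all genes were lower) and higher for 0 (4.08% of all genes were higher). Of these 12, 11 were antenna genes, led by LHCB2.2 (-0.74 ± 0.10, adjusted p of 7.33e-11) and LHCA1 (-0.71 ± 0.12, adjusted p of 1.4e-07), and the core gene was PSAD2 (-0.43 ± 0.10, adjusted p of 0.00066). Relative to the shift between these lines, 22 were lower, 16 of them antenna genes. On that scale 509 of all 20005 genes were lower and 511 higher. Fewer differences were called between the mutants: the ibl1 mutant was lower than the ibh1 mutant for LHCB2.1, LHCB2.2 and LHCB3 (3 members, with 0.311% of all genes lower) and higher for 0 (0.155% of all genes were higher), and none of the 3 was called once the shift between the mutants was subtracted. The differences remained at -0.35, -0.41 and -0.42 for LHCB2.1, LHCB2.2 and LHCB3 after that step, against -0.43, -0.49 and -0.51 before it (adjusted p of 0.305, 0.0657 and 0.112 after it).

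**Figure D4:**
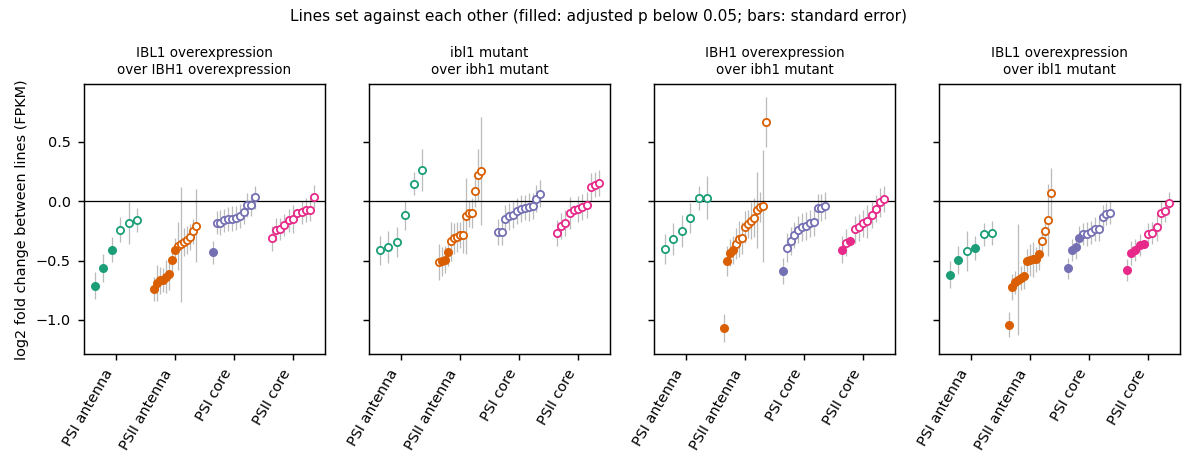
Log2 fold change of FPKM between lines for the 44 genes, by complex, in 4 pairs of lines; filled points had an adjusted p below 0.05 and bars are standard errors. The lowest point in the 2 right-hand panels is LHCB2.3, at -1.07 and -1.04.

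In the overexpression line and the insertion mutant of the same gene, most members lay on the same side of Col. All lines are set against the same Col libraries, so lying on the same side is not an independent result for each line. The overexpression line was the lower of the pair wherever a difference between the 2 was called. IBH1 overexpression was lower than the ibh1 mutant for 7 members (1.62% of all genes were lower) and higher for 0 (1.3% of all genes were higher): LHCB2.1, LHCB2.2, LHCB2.3, LHCB3, PSAN, PSBP1 and PSBQ2. IBL1 overexpression was lower than the ibl1 mutant for 22 members (0.722% of all genes were lower) and higher for 0 (4.44% of all genes were higher). Relative to the shift between these lines it was lower for 37 members, with 367 of all 20087 genes lower. LHCB2.3 had the largest difference in both pairs, at -1.07 ± 0.12 (adjusted p of 1e-16) with IBH1 and -1.04 ± 0.10 (adjusted p of 1.01e-20) with IBL1. PSAN differed by -0.59 ± 0.11 (adjusted p of 1.38e-05) and -0.57 ± 0.09 (adjusted p of 6.14e-08). For LHCB4.3 the difference between IBH1 overexpression and the ibh1 mutant was 0.67 ± 0.21 and missed the threshold (adjusted p of 0.0569).

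Other photosynthesis genes were also read. Their lists were less abundant, with median levels in Col of 530 FPKM for electron transfer and ATP synthase, 179 for assembly factors, 158 for LHC-like proteins and 46.4 for regulators, against 3002 for the 44 members, so their counts cannot be set directly beside those of the members. Of 14 nuclear genes for electron transfer and ATP synthase, 2 were lower and 2 higher in the IBH1 overexpression line, 2 and 1 in the ibh1 mutant, 9 and 0 in the IBL1 overexpression line and 2 and 2 in the ibl1 mutant. The 2 leaf ferredoxins, which take electrons from PSI, parted in the IBH1 overexpression line: FD1 stood at 941 FPKM against 603 in Col (log2 0.64 ± 0.08) and FD2 at 1892 against 2834 (log2 -0.58 ± 0.07). Of 9 photosystem assembly factors, 7 were lower in the IBL1 overexpression line, 2 were lower and 1 higher in the IBH1 overexpression line, 1 was lower in ibl1 and none was called in ibh1. PSB27, a PSII repair factor, stood at 388, 429, 307 and 383 FPKM in the IBH1 overexpression, ibh1, IBL1 overexpression and ibl1 lines and at 503 in Col, and was called in all but ibh1.

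Of 3 antenna kinases and phosphatase, 2 were higher in the IBH1 overexpression line, where 3.82% of all genes were higher. In the IBL1 overexpression line 1 was lower, where 3.58% of all genes were lower. The LHCII kinase STN7 rose in the IBH1 overexpression line, to 56.0 FPKM against 41.3 in Col (log2 0.44 ± 0.12, authors' q of 0.00355), as did its opposing phosphatase TAP38 (0.28 ± 0.10, authors' q of 0.0413), and the PSII core kinase STN8 fell in the IBL1 overexpression line (-0.52 ± 0.10). Of 12 regulators of photosynthesis genes, including the transcription factors GLK1, GLK2, GNC and HY5, 1 was lower in the IBH1 overexpression line, 2 were lower and 1 higher in the IBL1 overexpression line, and none was called in either mutant. GUN4, which supports chlorophyll synthesis, was lower in both overexpression lines (-0.30 ± 0.09 with IBH1 and -0.51 ± 0.09 with IBL1), and in the IBL1 overexpression line GLK1 was lower (-0.28 ± 0.10) and HYH higher (0.54 ± 0.17), the HYH call being lost once that line's shift was subtracted. Of 8 LHC-like proteins, which share the fold of the antenna and serve in protection or pigment handling, at most 1 was called in any line. Relative to the shift of the IBL1 overexpression line, its counts of lower genes were 13 of 14 for electron transfer and ATP synthase, 8 of 9 for assembly factors, 5 of 12 for regulators and 4 of 8 for LHC-like proteins, with 0 higher in each. The antenna kinases and phosphatase gave 2 of 3 lower and 0 higher. On that scale 1284 of all 20926 genes were lower and 1188 higher.

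Of the 20 chloroplast-encoded photosystem genes 19 were tested, with 2 lower and 2 higher in the IBH1 overexpression line, 1 and 0 in ibh1, 4 and 0 in the IBL1 overexpression line and 1 and 1 in ibl1. PSBC, an inner antenna protein of PSII, was lower in all 4 lines, and PSBA, the D1 protein, was lower in both overexpression lines (-0.46 with IBH1 and -0.61 with IBL1) and higher in ibl1 (0.69). Relative to each line's shift, PSAA and PSAB of PSI were the 2 higher in the IBH1 overexpression line, where 3 genes were lower. Both were lower in the IBL1 overexpression line on that scale. RNA was selected by its poly(A) tail, which most chloroplast transcripts lack, so these values describe only the part that was captured.

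**Figure D5:**
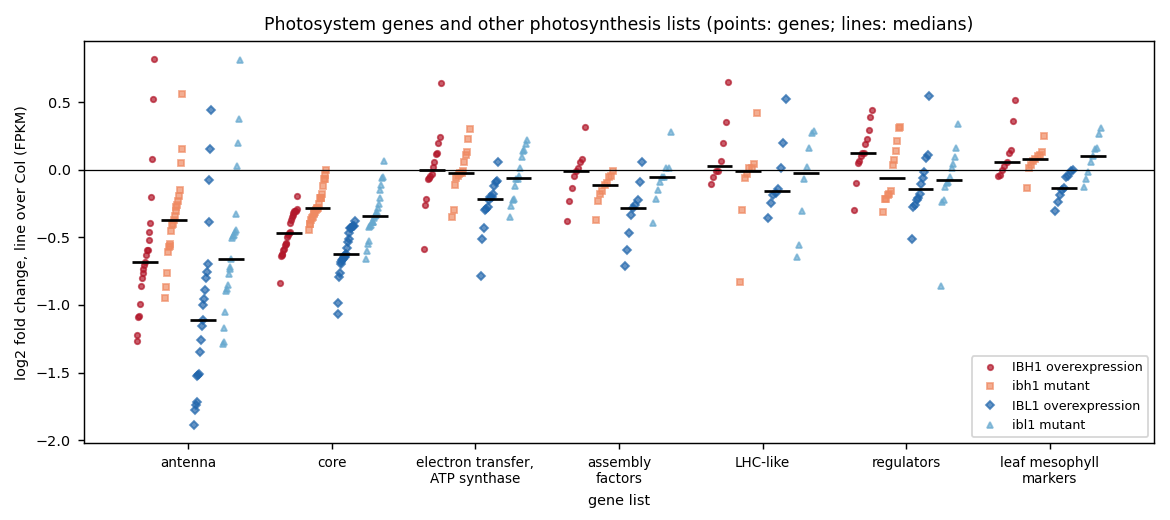
Log2 fold change of FPKM, line over Col, for the antenna genes, the core genes and 5 other lists in the 4 lines; each point is 1 gene and black lines are list medians. Antenna and core medians lie below 0 in all 4 lines, and within each line the medians of the other lists lie closer to 0.

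Cell type markers were read beside these falls, since in whole seedlings fewer cells of a type and less RNA per cell cannot be told apart. The summed FPKM of the 9 mesophyll markers, none at 0, was 101% of Col in the IBH1 overexpression line, 98.9% in the ibh1 mutant, 90.3% in the IBL1 overexpression line and 101% in the ibl1 mutant. Of these 9, 2 were higher in each line other than IBL1 overexpression, where 3 were lower (RCA at -0.30, PRK at -0.24 and CA1 at -0.13 on the log2 scale). Relative to each line's shift, 4 of 9 were lower in the IBL1 overexpression line and 5 of 9 higher in the ibl1 mutant. On that scale 1284 of all 20926 genes were lower in the former and 312 of all 20298 higher in the latter. Root markers summed to 93.9%, 136%, 126% and 101% of Col, with 3 of 7 higher in the ibh1 mutant and 3 of 7 higher in the IBL1 overexpression line (1 of 7 relative to its shift). In the IBH1 overexpression line 2 of 7 root markers were lower and 1 was higher, and in the ibl1 mutant none was called. Guard cell markers gave no call among 3 genes in any line, though relative to its shift 1 of 3 (MYB60) was lower in the IBL1 overexpression line. Vascular markers were lower in the IBL1 overexpression line for 4 of 4 and in the IBH1 overexpression line for 1 of 4. The part of tissue proportions in the falls of the photosystem genes was not tested.

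The upstream sequence of the genes was read for 4 short motifs, because antenna and core genes had moved by different amounts. The window was 250 bases before the RefSeq gene start, and both strands were searched for the G-box CACGTG (its own reverse complement, the core bound by many basic helix-loop-helix and bZIP factors), the PBE-box CACATG or CATGTG, the I-box GATAAG or CTTATC, and CCAATC or GATTGG, which contains the CCAAT box. No motif contains another. CCAATC was in 11 of 44 windows (25.0%) against 10.2% of the 27443 windows of all protein-coding genes. It was in 3 of 6 PSI antenna and 7 of 15 PSII antenna windows, 0 of 12 PSI core and 1 of 11 PSII core windows. The G-box was in 10 of 44 (22.7%, against 6.49% of all), the I-box in 9 (20.5%, against 12.3%) and the PBE-box in 5 (11.4%, against 11.1%). The windows of 5 antenna genes (RefSeq, TAIR10.1, 5′ to 3′ on the gene's strand) and of LHCB1.4, the member with the deepest fall, are given as examples of windows with and without these motifs; capitals mark the G-box and CCAATC in either direction. LHCA4 lies at chr3:17495034-17495283 (minus strand), LHCB2.2 at chr2:1800473-1800722 (minus strand), LHCB2.3 at chr3:10255656-10255905 (plus strand), LHCB4.1 at chr5:208616-208865 (plus strand) LHCB4.3 at chr2:16745378-16745627 (plus strand) and LHCB1.4 at chr2:14524357-14524606 (plus strand).
LHCA4: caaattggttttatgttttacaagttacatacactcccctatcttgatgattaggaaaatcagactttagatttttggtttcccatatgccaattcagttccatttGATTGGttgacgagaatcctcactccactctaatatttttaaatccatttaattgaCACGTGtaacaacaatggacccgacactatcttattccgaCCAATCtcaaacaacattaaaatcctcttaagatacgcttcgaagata
LHCB2.2: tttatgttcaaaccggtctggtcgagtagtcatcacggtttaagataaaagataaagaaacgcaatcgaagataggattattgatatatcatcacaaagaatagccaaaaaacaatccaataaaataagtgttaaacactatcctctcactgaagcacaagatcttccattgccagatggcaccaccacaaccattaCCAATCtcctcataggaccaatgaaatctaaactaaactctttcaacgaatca
LHCB2.3: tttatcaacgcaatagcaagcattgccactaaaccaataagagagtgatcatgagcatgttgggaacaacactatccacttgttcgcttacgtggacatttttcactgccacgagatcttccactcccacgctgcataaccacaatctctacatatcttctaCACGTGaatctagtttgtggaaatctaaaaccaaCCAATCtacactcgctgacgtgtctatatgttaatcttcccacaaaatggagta
LHCB4.1: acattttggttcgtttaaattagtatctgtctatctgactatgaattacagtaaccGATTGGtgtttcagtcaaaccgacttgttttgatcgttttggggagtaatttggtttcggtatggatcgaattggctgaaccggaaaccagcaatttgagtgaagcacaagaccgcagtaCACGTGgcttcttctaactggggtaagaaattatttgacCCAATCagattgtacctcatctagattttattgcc
LHCB4.3: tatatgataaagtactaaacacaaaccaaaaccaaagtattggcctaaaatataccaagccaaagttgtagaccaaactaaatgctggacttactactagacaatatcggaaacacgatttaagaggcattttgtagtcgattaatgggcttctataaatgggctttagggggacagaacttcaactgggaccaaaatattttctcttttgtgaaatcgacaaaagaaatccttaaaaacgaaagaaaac
LHCB1.4: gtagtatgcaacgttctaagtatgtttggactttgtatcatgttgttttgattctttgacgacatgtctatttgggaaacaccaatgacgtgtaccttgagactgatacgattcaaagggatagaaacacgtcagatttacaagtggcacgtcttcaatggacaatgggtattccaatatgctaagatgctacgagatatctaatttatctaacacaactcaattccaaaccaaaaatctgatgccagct
LHCA4 and LHCB4.1 each held 1 G-box and 2 copies of CCAATC, and LHCB2.3 held 1 of each. LHCB2.2, which fell in all 4 lines, held CCAATC and no G-box. Neither LHCB4.3, which rose with IBH1 overexpression, nor LHCB1.4 held any of the 4 motifs in this window. The same was true of 22 of the 44 members, among them 10 of the 24 genes called lower in all 4 lines, and 17 of those 24 had no CCAATC. Whether the motifs bear on the falls was not tested. The windows follow the RefSeq gene starts, which differ from the starts deposited by the authors for some members. For LHCB1.4 the deposited start lies downstream of the RefSeq start, and the bases between them were not searched. A match describes letters only and says nothing of binding.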

How the data were processed

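RNA selected for poly(A) was sequenced from 10 libraries, 2 for each of 5 genotypes, per the labels' protocols. CASAVA 1.8.2, TopHat 1.4.1, Cuffdiff and TAIR10 are the tools and build named, without roles, per the submitters' processing notes; for the Cuffdiff version, the scaling between groups and the handling of shared reads the sources used here state nothing. Deposited by the authors were 4 tables, 1 for each line against Col, which hold 1 FPKM for the line and 1 FPKM for Col, a statistic with its p-value and q-value, and a log2 ratio, per the file headers. No depth and no value per library is in these tables, so the sequencing depth is unknown, the spread between libraries is unknown and leaving out a library was not possible. The deposited log2 ratio runs Col over line; fold changes were recomputed as line over Col from the FPKM values, without a pseudocount.

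The standard error was the log2 fold change divided by the authors' statistic, and a gene was called at an authors' q below 0.05 among genes with a completed test. Lines were set against each other by the difference of their log2 fold changes, with the 2 squared standard errors added (an upper bound, because Col cancels), a two-sided normal p and Benjamini-Hochberg adjustment over all usable genes. This step was tested on simulated data. Alternatives were subtraction of the median log2 fold change (over genes reaching 1 FPKM in line and Col), a threshold of 0.01, a minimum of 1 FPKM, a pseudocount of 1 and summing of related copies. The copies summed were LHCB1.1 to LHCB1.3, LHCB1.4 with LHCB1.5, LHCB2.1 with LHCB2.2, and LHCB4.1 with LHCB4.2. The last pair was only 81.9% identical. The members, the gene lists and the markers were chosen with earlier results of these data known. All 44 members could be named; of each other list, the called genes with the largest change were named, at most 3 per list and comparison, and all genes of lists of 5 or fewer could be. Other genes named outside this rule (the lists' examples and PSBC across lines) were chosen after their values were seen. Sequences came from the RefSeq TAIR10.1 assembly, in which all 44 members were matched by identifier. Python 3.11.15, numpy 2.4.6, pandas 2.3.3, scipy 1.17.1 and matplotlib 3.10.9 were used.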

Additional observations from a re-analysis of the deposited data

Results flagged for a closer look

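The lines differed from each other in how far the photosystem genes lay below Col. IBL1 overexpression was lower than IBH1 overexpression for 12 of the 44 genes by the test of the difference itself, led by LHCB2.2, LHCA1 and LHCB1.5. The ibl1 mutant was lower than the ibh1 mutant for 3, which were LHCB2.1, LHCB2.2 and LHCB3. After the median gene of each line was set to 0, none of these 3 was called, with differences of -0.35, -0.41 and -0.42, and the count of 12 became 22. On that scale 509 of all 20005 genes were lower in IBL1 overexpression than in IBH1 overexpression.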

How the results depend on the processing

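With the median gene of each line set to 0, members lower in IBL1 overexpression than in IBH1 overexpression numbered 22 (12 as deposited) and those lower in IBL1 overexpression than in the ibl1 mutant 37 (22 as deposited), while the ibl1 mutant was lower than the ibh1 mutant for 0 (3 as deposited). At an adjusted p below 0.01 the last count was 1. Over all genes, centring gave 509 of 20005, 367 of 20087 and 27 of 19967 lower in these comparisons, in the same order. The member higher in IBL1 overexpression than in Col (LHCB4.3) was lost under both settings, leaving 0, and 1 (LHCA5) became higher in the ibl1 mutant after centring. Over all genes called, centring moved the share higher to 48.1% in IBL1 overexpression, against 74.3% as deposited, and to 38.9% in the ibl1 mutant, against 19.2%. The medians with a pseudocount of 1 or with copies summed kept their direction. The other counts of members lower did too, but the threshold of 0.01 reduced some of them. Members lower in the ibh1 mutant than in Col then numbered 17, against 25 at the main threshold. In the IBH1 overexpression, IBL1 overexpression and ibl1 lines the counts were 38, 40 and 33, against 39, 41 and 34. Members lower in IBH1 overexpression than in the ibh1 mutant numbered 5, against 7. No paired analysis was possible because the tables give 1 value per genotype. Unknown depth and 2 libraries per genotype limit what LHCB7 and other low members can show.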
